A study of Mus musculus with 17 samples.

Results

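The glucocorticoid receptor gene Nr3c1 and 9 genes known to respond to it (Fkbp5, Sgk1, Tsc22d3, Zbtb16, Ddit4, Pdk4, Hif3a, Mt1 and Mt2) were followed through mouse prefrontal cortex before and after an addiction protocol. The 10 genes were chosen by symbol, from what is known of the receptor, out of 25239 genes in the count tables. Earlier results of these data were known when they were chosen. All 10 had a row in each of the 3 tables. Bulk RNA was sequenced from 17 libraries. All mice were of the DAT-cre line, in which the dopamine transporter gene drives Cre and so limits it to dopamine neurons. The protocol was oDASS, optogenetic self-stimulation of dopamine neurons, and the labels class the animals as perseverers (addicted) or renouncers (non-addicted). Before oDASS, brain tissue imprints of the orbitofrontal cortex (OFC) gave 2 perseverer and 3 renouncer libraries. After oDASS, dissected tissue gave 3 perseverer and 3 renouncer libraries of the OFC and 3 perseverer and 3 renouncer libraries of the medial prefrontal cortex (mPFC). Every dissected group had been through oDASS. Stage and way of collection coincided, so time and sampling cannot be told apart. The labels give no age or sex. They do not state which animal a library came from, so p values measure the spread between these libraries, which may be technical. OFC and mPFC dissections of the same number may share an animal, and the main tests did not pair them.

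Glucocorticoids, corticosterone in mice, are adrenal hormones released under stress and in a daily rhythm. The receptor waits in the cytoplasm with the Hsp90 chaperones, enters the nucleus when hormone binds, and acts on transcription at palindromic elements. Its best known targets include feedback genes (Fkbp5), kinases (Sgk1), anti-inflammatory factors (Tsc22d3) and metabolic genes (Pdk4), and in the brain they are read out in neurons, glia and vessels alike.

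Sequences close to the transcription start were searched for fixed response element motifs, which leaves out looser and more distant sites. RefSeq promoter windows on GRCm38.p6, from 250 bases before to 50 bases after a start, were matched by symbol for 8 of the 10 members, with 15 windows in all, and Nr3c1 and Zbtb16 had no entry. On both strands, the full palindrome, AGAACA followed by 3 bases and by its reverse complement, was found in 1 of the 15 windows, an Sgk1 window at chr10:21993640-21993939 on the plus strand. That palindrome occurred in 3 of all 32851 windows, or 0.00913%. It begins 189 bases before the start and is in capitals here.
Sgk1: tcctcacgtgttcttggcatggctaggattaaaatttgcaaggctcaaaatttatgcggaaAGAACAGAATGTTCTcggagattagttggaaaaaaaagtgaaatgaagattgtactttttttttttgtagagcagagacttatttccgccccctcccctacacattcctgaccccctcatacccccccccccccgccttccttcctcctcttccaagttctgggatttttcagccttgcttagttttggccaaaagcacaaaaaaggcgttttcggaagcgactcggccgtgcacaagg
Metal response elements, the sites of the zinc-sensing factor Mtf1, were searched as TGCACNC or TGCGCNC on both strands. The Mt1 window (chr8:94178839-94179138, plus strand) held 3 and the Mt2 window (chr8:94172368-94172667, plus strand) held 4, against at most 1 in any of the other 13 member windows. At least 1 was present in 25.7% of all windows and 3 or more in 1.97%. Capitals mark the matches, which show the motif that the metallothionein pair shares.
Mt1: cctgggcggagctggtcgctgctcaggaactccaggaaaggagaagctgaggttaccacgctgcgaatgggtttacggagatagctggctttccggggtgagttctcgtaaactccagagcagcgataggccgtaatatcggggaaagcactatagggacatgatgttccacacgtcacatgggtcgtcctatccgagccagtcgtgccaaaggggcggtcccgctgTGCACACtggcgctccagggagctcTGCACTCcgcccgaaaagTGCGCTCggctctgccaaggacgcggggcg
Mt2: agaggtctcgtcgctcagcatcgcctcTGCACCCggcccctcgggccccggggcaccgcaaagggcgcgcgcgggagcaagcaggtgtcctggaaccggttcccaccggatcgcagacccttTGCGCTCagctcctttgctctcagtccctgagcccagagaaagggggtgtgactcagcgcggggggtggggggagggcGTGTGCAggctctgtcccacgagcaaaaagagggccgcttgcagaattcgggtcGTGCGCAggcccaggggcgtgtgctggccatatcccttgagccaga
The 6-base arm AGAACA alone, which also lies within the palindrome, was present in 19.0% of all windows. Among the members it occurred in 3 of the 6 Sgk1 windows and 1 of the 3 Tsc22d3 windows. A match is a description of these letters only, and other enhancers of the members were not examined.

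Mt1 and Mt2 lie 5514 bases apart on chromosome 8 (Mt1 at 94179082 to 94180327, Mt2 at 94172664 to 94173568, GENCODE annotation of GRCm38). Their transcripts shared no identical run longer than 20 bases. Another annotated gene, Gm45774, covered 73.5% of the exon bases of Mt2. The libraries do not keep the strand, so reads of Mt2 and of Gm45774 over the shared bases cannot be told apart. The annotation behind the counts is not given, so the effect of this overlap on the Mt2 counts is not known. Sgk1 lies on chromosome 10 (21882184 to 21999903), Tsc22d3 on chromosome X (140539528 to 140600659), Fkbp5 on chromosome 17 (28399094 to 28517527) and Ddit4 on chromosome 10 (59949669 to 59951834). Outside Mt2, 0% of a member's exon bases overlapped another annotated gene.

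The dissections held 12392731 to 20945108 counts and the imprints 8960549 to 10662666. Haemoglobin genes took 29.7% of the counts in imprint renouncer 1 and 85.4% to 90.7% in the other 4 imprints, against at most 0.0787% in a dissection. Outside haemoglobin the imprints held 980475 to 6556037 counts. Imprint renouncer 1, with the 6556037, stands apart from the other 4 imprints in depth. Levels below are CPM (the count scaled to library size) after TMM scaling over all 17 libraries. TMM scales libraries to each other through the bulk of genes, and its factors multiply the library totals. These factors were 0.0338 to 0.692 in imprints and 0.960 to 1.04 in dissections. With them, 1 count was worth 0.155 to 2.77 CPM in imprints and 0.0480 to 0.0792 CPM in dissections. Excitatory neuron markers were detected at both stages. The summed level of 5 such markers was 1276 to 2834 CPM in imprints and 2896 to 6270 CPM in dissections.

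Per kilobase of the gene length deposited with the counts, the members spanned a wide range in the 12 dissections. Those lengths differ from the GENCODE exon bases, as for Fkbp5 (3884 against 9468) and Zbtb16 (7782 against 5283). The order below is that of the deposited lengths, and other lengths may change it. Mt1, a zinc-binding metallothionein, led at 1553 ± 418 CPM per kb (SD, n = 12), and Mt2 followed at 239 ± 73.1. Tsc22d3, the leucine zipper protein GILZ, stood at 66.3 ± 13.1 CPM per kb, Sgk1, a kinase acting on ion channels and transporters, at 24.5 ± 5.05, and Nr3c1, the receptor, at 14.4 ± 1.91. Ddit4, an inhibitor of mTOR signalling, stood at 9.72 ± 3.07 CPM per kb, Fkbp5, a co-chaperone that lowers the receptor's hormone binding, at 7.93 ± 1.72, and Pdk4, a kinase that closes pyruvate dehydrogenase, at 7.79 ± 2.02. Neighbours in this order from Nr3c1 to Pdk4 were not tested against each other; Fkbp5 and Pdk4 differed by less than the SD of either. Zbtb16, a zinc finger repressor, stood at 2.82 ± 0.490 CPM per kb and Hif3a, a subunit of the hypoxia-inducible factors, was lowest at 0.339 ± 0.168. Hif3a rested on 15 to 77 counts a library. The brain metallothionein Mt3, a paralog outside the members, stood at 1519 ± 394 CPM per kb, within the spread of Mt1.

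**Figure D1:**
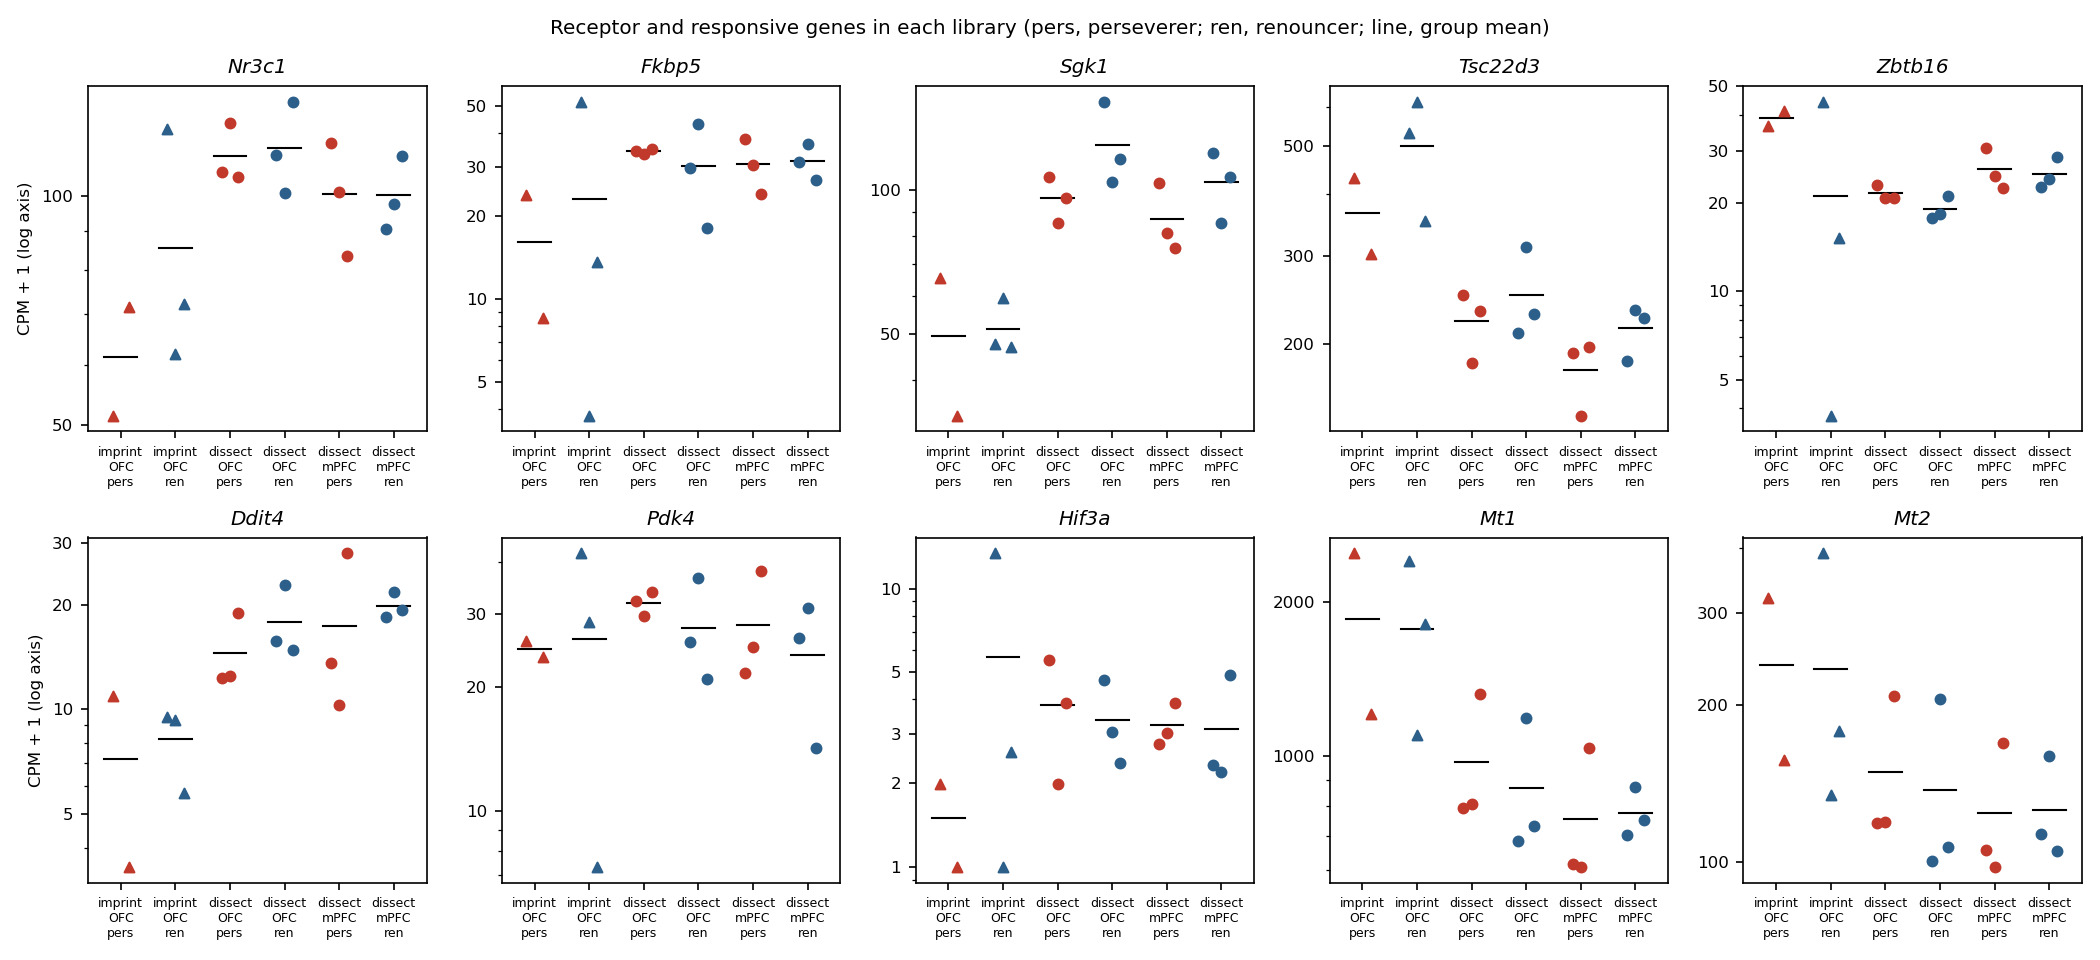
Level of each of the 10 genes in each of the 17 libraries, as CPM + 1 on a log axis, by group (triangles, imprints; circles, dissections; red, perseverers; blue, renouncers; line, group mean). All 5 imprints lie below all 6 OFC dissections for Sgk1 and Ddit4, and perseverer and renouncer dissections overlap for every gene.

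The receptor transcript showed no called difference between phenotypes. In the OFC, Nr3c1 had 106.8, 123.997 and 105.2 CPM in perseverers, against 112.5, 100.1 and 132.2 CPM in renouncers. In the mPFC it had 116.6, 100.5 and 82.5 CPM in perseverers, against 89.6, 96.6 and 112.2 CPM in renouncers. The phenotypes overlapped in both regions. Perseverers over renouncers had a log2 fold change of -0.02 ± 0.15 (SE) in the OFC and 0.02 ± 0.17 in the mPFC, and with both regions fitted together it was 0.01 ± 0.10 (edgeR's quasi-likelihood test, adjusted p = 0.991). Nr3c1 varied least of the members, with a coefficient of variation of 13.2% over the 12 dissections, against 17.4% to 49.5% for the other 9.

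Sgk1 lay lower in perseverers in both regions without passing the test. In the OFC it had 105, 84.3 and 95.2 CPM in perseverers, against 151.9, 102.6 and 114.9 CPM in renouncers. In the mPFC it had 102, 80.4 and 74.7 CPM in perseverers, against 118.6, 84.1 and 105.6 CPM in renouncers. The groups overlapped in both regions, in the OFC through perseverer 1 and renouncer 2 alone. Its log2 fold change was -0.35 ± 0.17 in the OFC (edgeR, adjusted p = 0.951), -0.25 ± 0.19 in the mPFC (adjusted p = 0.943) and -0.29 ± 0.12 with both regions fitted together (adjusted p = 0.412). In the joint fit it was the 1 member of 10 under 0.05 before adjustment, as were 1669 of 15025 genes. Leaving out each library in turn gave -0.37 to -0.22 in the joint fit, and summing both regions per phenotype and replicate number, so that each number counts once, gave an adjusted p of 0.865. The summed level of 5 excitatory neuron markers was 4383 to 4816 CPM in perseverer and 3185 to 3980 CPM in renouncer OFC, and 3885 to 6270 CPM in perseverer and 2896 to 3684 CPM in renouncer mPFC. The 6 inhibitory neuron markers summed to 635 to 768 CPM in perseverer and 741 to 963 CPM in renouncer OFC, and to 648 to 795 CPM in perseverer and 870 to 1183 CPM in renouncer mPFC. Single markers were less uniform than the sums. Of the excitatory markers, 3 were higher and 2 lower in perseverer OFC, and 5 higher and 0 lower in perseverer mPFC. Of the inhibitory markers, 1 was higher and 5 lower in perseverer OFC, and 2 higher and 4 lower in perseverer mPFC. Of these markers 0 passed the threshold. In these marker lists 0 markers were at 0 in any dissection, and their part in the Sgk1 difference was not tested. In bulk tissue, fewer cells of a type and less RNA per cell cannot be told apart.

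Tsc22d3 had 250, 182 and 232 CPM in perseverers, against 209, 312 and 229 CPM in renouncers, in the OFC. In the mPFC it had 190, 142 and 196 CPM in perseverers, against 184, 233 and 225 CPM in renouncers. Both pairs of groups overlapped, with log2 fold changes of -0.16 ± 0.20 and -0.26 ± 0.19. The feedback gene Fkbp5 had 33.5, 32.7 and 33.9 CPM in perseverer OFC, against 28.9, 42.2 and 17.1 CPM in renouncer OFC. The 3 perseverers lay close together inside the range of the renouncers, and the log2 fold change was 0.19 ± 0.27. In the mPFC Fkbp5 had 37.1, 29.5 and 22.9 CPM in perseverers, against 30.4, 35.4 and 25.9 CPM in renouncers, a log2 fold change of -0.03 ± 0.22. Hif3a had 4.55, 0.994 and 2.88 CPM in perseverer OFC, against 3.70, 2.04 and 1.36 CPM in renouncer OFC, and the groups overlapped.

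Among the 10 members, 0 passed the threshold of an adjusted p under 0.05 between phenotypes in the OFC dissections, where 0% of 14621 genes passed, and 0 in the mPFC dissections, where 0% of 14375 genes passed. With both regions together, 0 of 10 members and 0% of 15025 genes passed in edgeR, while DESeq2 called 109 genes and 0 members. The joint fit counts OFC and mPFC libraries as independent, and the labels do not say which share an animal. Its SEs and p values, also those of DESeq2, may therefore be too small. With both regions summed per phenotype and replicate number, edgeR called 0 genes. At an unadjusted p under 0.05 stood 377 genes in the OFC and 639 in the mPFC with edgeR, and 420 and 767 with DESeq2, which also called 0 genes in each region. Perseverers and renouncers were fully apart in 0 of 10 members in either region, while 9.08% of all genes were apart in the OFC and 11.3% in the mPFC. The median log2 fold change of the members was 0.16 in the OFC and 0.00 in the mPFC, and that of all genes was 0.00 in both. The difference between the regions in the phenotype effect passed for 0 of 10 members, against 0% of all genes, and was 0.15 ± 0.25 for Zbtb16, the member with the smallest p.

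**Figure D2:**
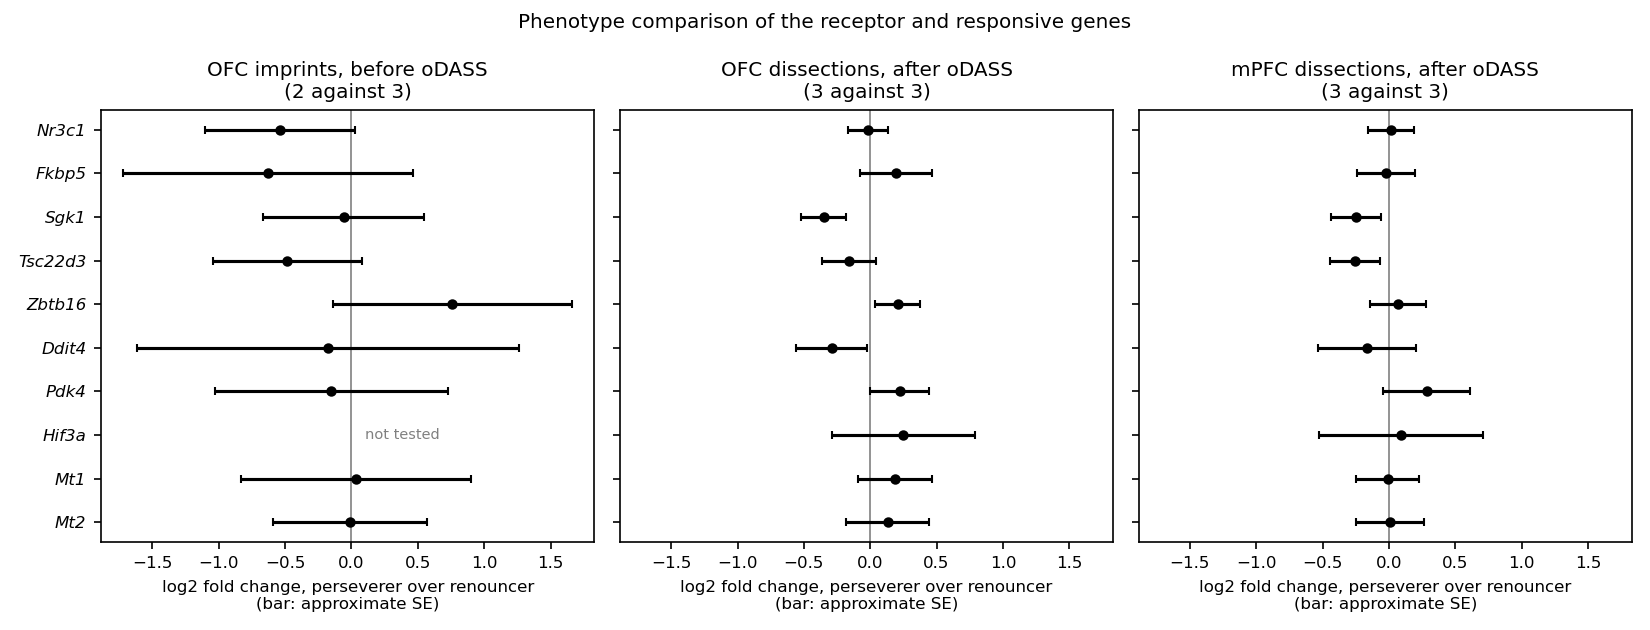
Log2 fold change of perseverers over renouncers for each member (points) with its approximate SE (bars), in OFC imprints, OFC dissections and mPFC dissections on a shared axis. No member passed the threshold, and each of the 9 members tested in the imprints has its widest bar there.

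The genes around the receptor gave the same count. The 5 lists held 65 genes, of which 60 were tested in the dissections. Between phenotypes 0 of these 60 passed in either region or with both together, against 0% of all genes. The median log2 fold change of all genes was 0.00 in the OFC, 0.00 in the mPFC and -0.03 in the OFC imprints. Receptor coregulators had positive fold changes in 9 of 10 members in the OFC, with a median of 0.11, and in 10 of 10 in the mPFC, with a median of 0.30. In the OFC imprints they were positive in 3 of 10, with a median of -0.16. Ncoa3, a steroid receptor coactivator, averaged 20.8 ± 2.09 CPM in perseverer and 12.9 ± 0.477 CPM in renouncer mPFC (SD, n = 3 each), a log2 fold change of 0.70 ± 0.21 (edgeR, adjusted p = 0.943). In the OFC it averaged 19.2 ± 2.69 CPM in perseverers and 20.7 ± 0.275 CPM in renouncers, and the difference between the regions was -0.78 ± 0.23 (edgeR, with 0 genes called). Receptor chaperones had negative fold changes in 10 of 11 members in the OFC and 7 of 11 in the mPFC, with medians of -0.11 and -0.07. In the OFC imprints they were negative in 2 of 11, with a median of 0.20. The part of the neuron marker differences given above in these values was not tested.

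Of 18 other responsive genes tested, 11 had negative fold changes in the OFC and 15 in the mPFC, with medians of -0.03 and -0.14. Nfkbia, the inhibitor of NF-kappaB and a textbook target of the receptor, averaged 29.2 ± 2.10 CPM in perseverer and 37.8 ± 7.18 CPM in renouncer OFC. In the mPFC it averaged 24.6 ± 5.56 CPM in perseverers and 38.8 ± 4.17 CPM in renouncers (SD, n = 3 each). With both regions together its log2 fold change was -0.49 ± 0.14 (edgeR, adjusted p = 0.345), and it passed the threshold with DESeq2 alone. The limit of the joint fit given above holds here and for the joint values of Crh and Nr3c2 below. In the OFC imprints the direction was the other way: Nfkbia averaged 161 ± 17.5 CPM in perseverers (n = 2) and 77.5 ± 6.66 CPM in renouncers (n = 3), a log2 fold change of 1.03 ± 0.46 (adjusted p = 0.99989). The difference between the stages was 1.45 ± 0.41 (adjusted p = 0.460). Blood markers had fold changes of both signs between the imprints of the 2 phenotypes. The 6 lymphocyte markers all had positive fold changes, with sums of 6335 to 10348 CPM in perseverer and 618 to 5427 CPM in renouncer imprints. The 5 platelet markers and the 3 neutrophil markers tested all had negative fold changes, but their sums overlapped between phenotypes. Platelet sums were 2010 to 6370 CPM in perseverer and 3553 to 7536 CPM in renouncer imprints. Sums of 5 neutrophil markers were 1553 to 1963 CPM in perseverer and 525 to 5899 CPM in renouncer imprints. Of 8 red cell markers, 5 had positive and 3 negative fold changes. Of these blood markers 0 passed. The part of blood cells in the Nfkbia values was not tested. Crh, the peptide that drives the hormone axis and a marker of a class of cortical interneurons, had -0.45 ± 0.15 (adjusted p = 0.363). It averaged 10.4 ± 1.81 CPM in perseverer and 13.97 ± 1.82 CPM in renouncer OFC, and 9.67 ± 1.27 CPM in perseverer and 13.8 ± 2.12 CPM in renouncer mPFC. The mineralocorticoid receptor Nr3c2, which binds the same hormone with higher affinity, averaged 15.1 ± 2.67 CPM in perseverer and 15.5 ± 0.290 CPM in renouncer OFC. In the mPFC it averaged 19.2 ± 3.71 CPM in perseverers and 13.7 ± 4.08 CPM in renouncers, a log2 fold change of 0.49 ± 0.27 (adjusted p = 0.943), and with both regions together it had 0.24 ± 0.17 (adjusted p = 0.597).

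The metallothioneins moved together from library to library. In the OFC, Mt1 had 791, 808 and 1323 CPM in perseverers, against 683, 1185 and 730 CPM in renouncers. Mt2 had 118, 118 and 207 CPM in perseverers there, against 99.3, 204 and 105.9 CPM in renouncers. Perseverer 3 and renouncer 2 were the high libraries for both genes. In the mPFC, Mt1 had 615, 607 and 1038 CPM in perseverers, against 703, 869 and 751 CPM in renouncers. Mt2 had 104.3, 96.8 and 168 CPM in perseverers there, against 112.2, 158 and 103.9 CPM in renouncers. Again perseverer 3 and renouncer 2 were highest. The log2 fold change between phenotypes was 0.19 ± 0.28 for Mt1 in the OFC and -0.01 ± 0.24 in the mPFC, and 0.13 ± 0.31 and 0.01 ± 0.26 for Mt2.

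Ddit4 and Pdk4 had their highest value in the same 4 libraries. Ddit4 had 11.3, 11.5 and 17.9 CPM in perseverer OFC, against 14.7, 21.8 and 13.8 CPM in renouncer OFC, and 12.6, 9.31 and 27.1 CPM in perseverer mPFC, against 17.5, 20.8 and 18.3 CPM in renouncer mPFC. Its log2 fold change in the mPFC, -0.16 ± 0.37, was -0.79 without perseverer 3 (adjusted p = 0.324) and 0.13 without perseverer 2. Pdk4 had 31.2, 28.6 and 32.8 CPM in perseverer OFC, against 24.7, 35.6 and 19.8 CPM in renouncer OFC, and 20.6, 24.0 and 37.1 CPM in perseverer mPFC, against 25.3, 29.95 and 13.2 CPM in renouncer mPFC. So 4 of 10 members were highest in perseverer 3 and renouncer 2 of both regions, a pattern named after the values were seen. It was shown by 2.58% of 15025 genes. The 4 include Mt1 and Mt2, from which the pattern was read, so the count is a description and no test. Sgk1 was instead highest in replicate 1 of all 4 dissection groups. The 10 astrocyte markers summed highest in OFC perseverer 3 (10127 CPM), OFC renouncer 2 (8885 CPM) and mPFC perseverer 3 (8288 CPM), but mPFC renouncer 2 (6697 CPM) lay under renouncer 1 (6931 CPM), and 0 of the 10 showed the pattern. The part of astrocytes in the pattern was not tested.

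Over the 12 dissections, log2 levels of Mt1 and Mt2 correlated with Pearson's r = 0.96, and with r = 0.97 after each group's mean was removed. Of the 45 pairs of members, the next highest were Pdk4 with Mt2 (0.72), Ddit4 with Mt2 (0.69) and Ddit4 with Mt1 (0.66, and 0.91 with group means removed). The most negative were Nr3c1 with Ddit4 at -0.59 (-0.65 with group means removed), Zbtb16 with Pdk4 at -0.56 (-0.77) and Nr3c1 with Pdk4 at -0.52 (-0.87). Nr3c1 with Mt1 and Mt2 had -0.33 and -0.44, and -0.65 and -0.66 with group means removed, while Nr3c1 with Zbtb16 had 0.01 and 0.79. These correlations share the libraries and their scaling and are descriptions. The ratio of Mt1 to Mt2 counts stayed between 5.49 and 7.22 in dissections and lay at 6.17 to 10.2 in imprints.

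**Figure D3:**
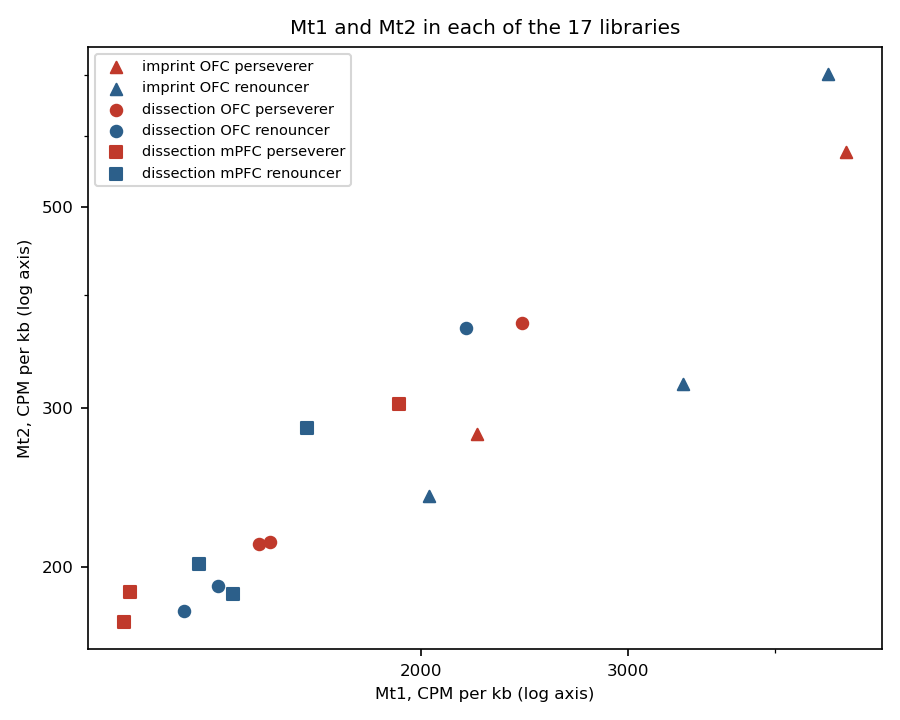
Mt2 against Mt1 in each of the 17 libraries, as CPM per kb on log axes (triangles, imprints; circles, OFC dissections; squares, mPFC dissections; red, perseverers; blue, renouncers). Mt2 is high where Mt1 is high, and the highest dissections of both genes are OFC perseverer 3 and OFC renouncer 2.

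Among all 15025 genes tested in the dissections, the most similar to Mt1 over the 12 libraries were Ntsr2, a neurotensin receptor of astrocytes (r = 0.97), and Aldh7a1, an aldehyde dehydrogenase (r = 0.96), ahead of Mt2. Nr3c1 was most like Snhg14, Snurf and Snrpn (r = 0.93 each), which lie in 1 imprinted domain and share transcripts, so they are not independent. Sgk1 was most like Nampt, an enzyme of NAD synthesis (r = 0.89), Tsc22d3 most like Smim3 (r = 0.91), Zbtb16 most like Nrp1, a semaphorin receptor (r = 0.88), and Ddit4 most like Fam210a (r = 0.89). Fkbp5 was most like Mfap2 (r = 0.93), Pdk4 most like Zfp13 (r = 0.92) and Hif3a most like Wdr90 (r = 0.80). The top values were picked from all genes and carry no test.

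Between regions, 0 of 10 members passed, against 1.76% of 15025 genes, and 8 of 10 had positive fold changes of OFC over mPFC, with a median of 0.19 against 0.00 for all genes. Zbtb16 came closest. It had 22.1, 19.8 and 19.8 CPM in OFC perseverers and 16.8, 17.3 and 20.0 CPM in OFC renouncers, against 29.8, 23.8 and 21.5 CPM in mPFC perseverers and 21.7, 23.1 and 27.6 CPM in mPFC renouncers. The regions overlapped between 21.5 and 22.1 CPM, and the log2 fold change of Zbtb16 was -0.37 ± 0.12 (edgeR, adjusted p = 0.144). Between dissections of the same phenotype and number, Zbtb16 was higher in the OFC in 0 of 6 cases. Sgk1 and Tsc22d3 were higher there in 6 of 6, and the remaining members in 2 to 5 of 6. Whether such libraries share an animal is not stated. Tsc22d3 had 0.26 ± 0.14 (adjusted p = 0.421) and Nr3c1 0.17 ± 0.10 (adjusted p = 0.491). OFC and mPFC were fully apart in 0 of 10 members, against 1.9% of all genes. Summed oligodendrocyte markers, 10 genes with 0 at 0 in a dissection, were 5905 to 19361 CPM in the OFC and 2110 to 8154 CPM in the mPFC, and their part in these values was not tested.

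Of 60 genes tested in the 5 lists around the receptor, 1 passed between regions (1.67%, against 1.76% of all genes). It was Ddit4l, the paralog of Ddit4 and likewise an inhibitor of mTOR signalling. It averaged 55.3 ± 9.56 CPM in OFC perseverers and 65.3 ± 13.2 CPM in OFC renouncers, against 29.5 ± 8.04 CPM in mPFC perseverers and 37.2 ± 8.39 CPM in mPFC renouncers (SD, n = 3 each). Its log2 fold change was 0.84 ± 0.15 (edgeR, adjusted p = 0.00849), while Ddit4 had -0.24 ± 0.25. The call ended in a fit of all 17 libraries (adjusted p = 0.235). Crhbp, which binds and holds back CRH, had -0.52 ± 0.15 (adjusted p = 0.0949).

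The imprints taken before oDASS differed from the OFC dissections taken after it in 3 of 10 members, against 33.5% of 15229 genes: 2 were higher, against 15.6% of all genes, and 1 was lower, against 17.9%. Those shares are near the background and are not a result about the members as a list. The median log2 fold change was 0.29 for the members and -0.16 for all genes. Sgk1 had 64.4 and 32.7 CPM in perseverer imprints and 46.7, 58.3 and 45.8 CPM in renouncer imprints, against 105, 84.3 and 95.2 CPM in perseverer dissections and 151.9, 102.6 and 114.9 CPM in renouncer dissections. All 5 imprints lay below all 6 dissections. Its log2 fold change was -1.07 ± 0.24 (edgeR, adjusted p = 0.00234), or -0.91 relative to the median of all genes.

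Tsc22d3 rose in the imprints. It had 431 and 302 CPM in perseverer imprints and 529, 613 and 353 CPM in renouncer imprints, against 250, 182 and 232 CPM in perseverer dissections and 209, 312 and 229 CPM in renouncer dissections. The lowest imprint lay under the highest dissection, OFC renouncer 2. Imprint over dissection gave 0.95 ± 0.22 on the log2 scale (adjusted p = 0.00298), or 1.11 relative to the median. The ratio of Tsc22d3 to Sgk1 counts, which no scaling of libraries changes, was 6.69 to 11.3 in the 5 imprints and 1.38 to 3.04 in the 12 dissections. The 2 genes were called in opposite directions on these same imprints, so their ratio is no separate support for either call. It does not tell which of the 2 genes moved.

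Mt1 rose as well, to 2489 and 1211 CPM in perseverer imprints and 2406, 1102 and 1810 CPM in renouncer imprints, against 683 to 1323 CPM in the 6 OFC dissections. Imprint and dissection overlapped, and the log2 fold change was 1.05 ± 0.28 (adjusted p = 0.0088), or 1.21 relative to the median. Mt2 had 320 and 156 CPM in perseverer imprints and 390, 133 and 177 CPM in renouncer imprints, against 99.3 to 207 CPM in the dissections. Its log2 fold change was 0.82 ± 0.31 and missed the threshold narrowly (adjusted p = 0.051). It passed without imprint renouncer 2 or 3, imprint perseverer 2, OFC renouncer 2 or OFC perseverer 3, each left out alone, with adjusted p of 0.0262 to 0.0465.

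The 3 calls moved with scaling. When libraries were scaled by their totals without haemoglobin genes and without TMM, a setting chosen after the data were seen, the median of all genes was -0.80. Sgk1 stayed lower at -1.77 ± 0.38 (adjusted p = 0.00142), Tsc22d3 had 0.23 ± 0.35 (adjusted p = 0.627) and Mt1 0.46 ± 0.44 (adjusted p = 0.415), while Nr3c1 (-1.22 ± 0.40, adjusted p = 0.0229) and Ddit4 (-1.62 ± 0.53, adjusted p = 0.0216) passed. Relative to the median of that setting, Sgk1 stood at -0.97, Tsc22d3 at 1.03 and Mt1 at 1.26. Subtracting the median removes most of a change in scaling by construction, so these values are no separate support for the calls. Leaving out each of the 11 OFC libraries in turn kept all 3 calls, with adjusted p values up to 0.0111 for Sgk1, 0.013 for Tsc22d3 and 0.049 for Mt1.

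**Figure D4:**
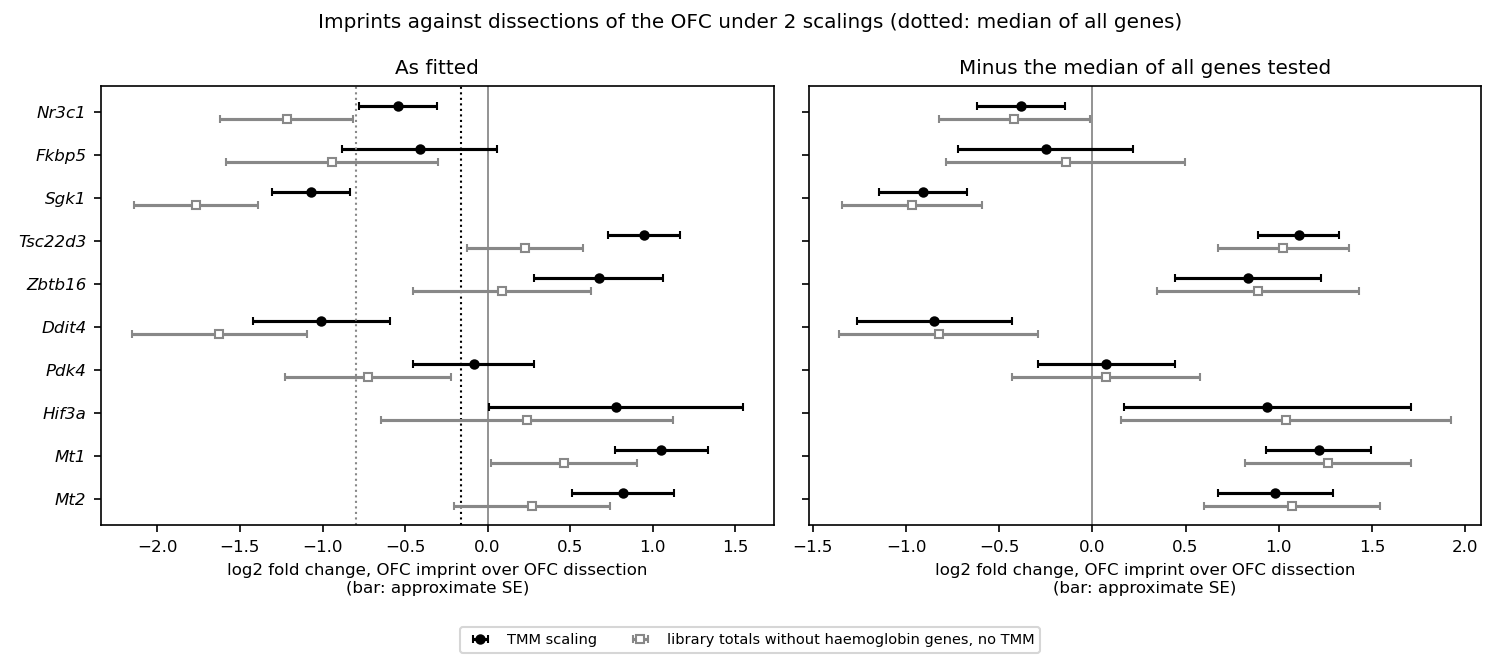
Log2 fold change of OFC imprints over OFC dissections for each member with its approximate SE, under TMM scaling (filled) and under library totals without haemoglobin genes (open), as fitted (left, dotted lines at the median of all genes) and minus that median (right). The left panel shifts between scalings with the medians of -0.16 and -0.80. Subtracting each median removes most of that shift by construction, and every member keeps its sign in the right panel.

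The other members were less well measured in the imprints. Ddit4 had 9.90 and 2.52 CPM in perseverer imprints and 8.52, 8.32 and 4.74 CPM in renouncer imprints, against 11.3 to 21.8 CPM in the 6 OFC dissections. All 5 imprints lay below all dissections, as for Sgk1, so that 2 of 10 members were fully apart, against 25% of all genes. The log2 fold change of Ddit4 was -1.01 ± 0.42 (adjusted p = 0.0733), on 1 to 55 counts an imprint, and -1.28 without imprint perseverer 1 (adjusted p = 0.0363). Nr3c1 had 50.5 and 70.5 CPM in perseverer imprints and 122, 61.0 and 71.1 CPM in renouncer imprints, against 100 to 132 CPM in the dissections. The fold change on the log2 scale was -0.54 ± 0.24 (adjusted p = 0.0878), and without imprint renouncer 1 it was -0.67 ± 0.20 (adjusted p = 0.0184).

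Fkbp5 had 23 and 3 counts in the perseverer imprints and 329, 1 and 8 counts in the renouncer imprints. Over dissections the log2 fold change was -0.41 ± 0.47, and without imprint renouncer 1 it was -1.12 ± 0.42 (adjusted p = 0.0498). Hif3a had 1 and 0 counts in the perseverer imprints and 80, 0 and 1 in the renouncer imprints. The 0 counts allow up to 7.55 CPM in perseverer 2 and 8.32 CPM in renouncer 2, counting error only. The log2 fold change of Hif3a, 0.78 ± 0.77 with all libraries, was -1.50 ± 1.07 without imprint renouncer 1. Zbtb16 had 35.6 and 40.3 CPM in perseverer imprints and 43.2, 2.77 and 14.2 CPM in renouncer imprints, and a log2 fold change of 0.67 ± 0.39 (adjusted p = 0.201). It was 0.89 without imprint renouncer 2 (adjusted p = 0.0338) and 0.37 without imprint renouncer 1 (adjusted p = 0.476). Pdk4 had -0.08 ± 0.37.

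Between phenotypes within the imprints, 0 of the 9 members tested passed, against 0% of 10530 genes, with 181 genes at an unadjusted p under 0.05 in edgeR and 0 calls with 237 such genes in DESeq2. Fold changes lay between -0.63 ± 1.09 for Fkbp5 and 0.76 ± 0.90 for Zbtb16, and Hif3a was not tested. The median was -0.15 for the members and -0.03 for all genes. Whether the phenotype difference itself changed with stage was tested in the 11 OFC libraries, and 0 of 10 members passed, against 0% of 15229 genes (edgeR, 1336 at an unadjusted p under 0.05), while DESeq2 called 73 genes and 0 members. Hif3a had the smallest p of the members, at -3.53 ± 1.83 (edgeR, adjusted p = 0.588), and it rested on few imprint counts: the value was -0.80 without imprint renouncer 1 and -9.53 without imprint perseverer 1. Sgk1 had 0.40 ± 0.46 (adjusted p = 0.852).

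The lists around the receptor held calls in both directions between imprint and dissection. Over the 5 lists 18 of 61 genes passed (29.5%), 10 higher (16.4%) and 8 lower (13.1%), against 33.5%, 15.6% and 17.9% of all genes. These shares are near the background and are not a result about the lists. Of 19 other responsive genes tested, 5 were higher (Nfkbia, Cebpb, Cebpd, Glul and Lcn2) and 2 lower (Arl4d and Rhob). Cebpb and Cebpd, transcription factors of myeloid and other cells, had log2 fold changes of 2.35 ± 0.34 and 1.87 ± 0.37, Lcn2, an iron-carrier protein stored in neutrophils, 7.88 ± 0.92, and Glul, glutamine synthetase of astrocytes, 1.63 ± 0.20. Of 11 chaperones, Bag1 was higher (1.05 ± 0.23) and Hsp90aa1 (-0.66 ± 0.22), Dnaja1 (-0.71 ± 0.21) and Stip1 (-0.90 ± 0.28) were lower. Of 10 coregulators, Crebbp (1.17 ± 0.22) and Arid1a (1.04 ± 0.27) were higher and Nrip1 (-1.0005 ± 0.353) was lower. Of 8 genes of steroid and CRH signalling, Crh (-1.84 ± 0.56) and Crhbp (-1.85 ± 0.62) were lower, and of 13 paralogs Tsc22d1 (1.41 ± 0.23) and Tsc22d4 (1.16 ± 0.23) were higher. Each of these passed the threshold in edgeR over all genes, under TMM scaling. Under library totals without haemoglobin genes, Cebpd, Tsc22d1, Tsc22d4, Bag1, Crebbp and Arid1a missed it, with adjusted p from 0.0612 for Cebpd to 0.624 for Bag1, and all 6 stayed above 0. Leaving out 1 of the 11 libraries ended the calls of Nrip1 and Crhbp in 7 cases each (adjusted p up to 0.0959 and 0.0730), of Hsp90aa1 in 4 (up to 0.0806) and of Dnaja1 and Arl4d in 1 each (0.0534 without OFC renouncer 3 and 0.0555 without imprint renouncer 1).

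Markers of blood moved with stage. All 8 red cell, 5 platelet and 6 lymphocyte markers and the 3 neutrophil markers tested passed as higher in the imprints. The 6 lymphocyte markers summed to 618 to 10348 CPM in the imprints and to 5.10 to 15.7 CPM in OFC dissections, where up to 4 of the 6 were at 0. The 5 platelet markers summed to 2010 to 7536 CPM in imprints and 172 to 231 CPM in OFC dissections. All 5 microglia markers were higher too (694 to 1328 CPM in imprints and 379 to 567 CPM in OFC dissections), and all 5 excitatory and 5 of 6 inhibitory neuron markers were lower. The 10 astrocyte markers summed to 5358 to 15630 CPM in imprints and 7375 to 10127 CPM in OFC dissections, and of these 1 passed as higher and 4 as lower in imprints. The part of blood, microglia and neurons in the values of Sgk1, Tsc22d3, Mt1 and the lists was not tested.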

How the data were processed

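Per the labels' protocols, RNA from imprints and dissections was extracted with a Qiagen kit and made into libraries with SMART-Seq v4 and Nextera; such libraries carry no strand. The authors deposited raw counts per gene, with gene lengths, in 3 tables of 25239 genes. Per the submitters' processing notes, FastQC 0.11.8 and mm10 were used. No aligner, counting program or annotation is given in the sources used here.

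Counts were tested in R 4.3.3 with edgeR 4.0.16 over all genes: filterByExpr with its default minimum count of 10, TMM, a robust quasi-likelihood test on both sides, and Benjamini-Hochberg adjusted p under 0.05. Phenotypes were compared within each table and over both regions with region as a term, and regions and stages were compared with phenotype as a term. SEs were taken from the fold change and its F statistic and are approximate. Levels are CPM after joint TMM scaling, with dissection factors averaging 1. Correlations used log2(CPM + 1). The tests were checked on simulated data.

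The members and lists were chosen with earlier results of these data known. Named were all members, up to 3 genes of each list with the smallest p in a comparison and any past the threshold, and the genes most like each member. Only a part of the genes this rule names is printed. Positions came from GENCODE and promoters from RefSeq. Alternatives were DESeq2 1.42.0, RLE scaling, other filters, a fit of all 17 libraries and a block term. Further ones were removal of haemoglobin genes, library totals as scaling, summed regions and leaving out each library. The block was the replicate number between phenotypes, which matches libraries by number alone, and phenotype with replicate number in the other comparisons.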

Additional observations from a re-analysis of the deposited data

How the results depend on the processing

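The call of no member between phenotypes, between regions or in the interactions held in every alternative run, with the members tested. The count of genes called between phenotypes moved to 63 in the imprints in a fit of all 17 libraries and to 109 over both regions with DESeq2. Between regions the count was 698 with DESeq2, 21 in the fit of all 17 libraries and 120 to 448 when 1 library was left out, against 264. Between imprint and dissection, the members called numbered 6 with DESeq2, 5 in the fit of all 17 libraries and 3 to 5 when 1 library was left out, against 3. For phenotype by stage the genes called numbered 73 with DESeq2, 6 in the fit of all 17 libraries and 0 to 4 when 1 library was left out, against 0. The causes were not tested.

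Same-numbered OFC and mPFC dissections did not meet the criterion for pairs, since 5 of 6 had a correlation of their deviations over 0.1 (range -0.02 to 0.51), although 10 of 12 libraries correlated best with their own number. Their sample codes are consecutive, and the labels give the codes no meaning. With phenotype and replicate number together as a block, 1130 genes and 0 members passed between regions in edgeR, and Zbtb16 had an adjusted p of 0.0543. Imprint and dissection pairs had 0.04 to 0.16, and 4 members passed with the block. Between phenotypes the members' fold changes had the other sign in 10 of 120 values over the alternatives in the OFC and 25 of 120 in the mPFC, and in 14 values in the imprints. Among them, with 1 library left out, were Tsc22d3 in the OFC (up to 0.04), Ddit4 in the mPFC (up to 0.13) and Ddit4 and Sgk1 in the imprints (up to 0.47 and 0.39). Low imprint counts limit Fkbp5, Ddit4, Zbtb16 and Hif3a. Without TMM, 15 of 60 group mean levels moved by more than 1 SD, all of them in imprints.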
